A study of Mus musculus with 62 samples.

Results

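The 10 immediate early genes described here, Fos, Fosb, Fosl2, Jun, Junb, Egr1, Myc, Btg2, Zfp36 and Atf3, were chosen by symbol from a table of 47643 gene symbols measured by RNA sequencing in mouse hearts. Of these 10, 9 reached 1 TPM (transcripts scaled for length and given as a share of a library) in at least 5 libraries and were tested together with 12541 genes in all. The animals were female, 2 months old, and had received melanoma cells called cachectic in the labels (CAC), melanoma cells called non-cachectic (NCAC) or a mock injection (Con). Hearts were taken 2, 4, 6 and 8 weeks later, and each of the 12 groups had 5 libraries except CAC at week 8, which had 7, and Con at week 4, where 4 of 5 were used.

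The sample labels give the strain as C57BL6/J, whereas the design text names NCI Ath/nude mice, so the immune status of the hosts is not settled by the labels. Wasting of the host and the melanoma line given cannot be told apart in CAC against NCAC, since each arm had its own cells. Each library carries its own heart number and is called a biological replicate in the labels, so the tests below measure the spread between hearts. That spread is a single value per gene, pooled over all 12 groups, and not the spread of the compared hearts alone. Con week 4 replicate 2 was left out: mitochondrially encoded transcripts held 89.1% of its TPM, against 49.3 to 61.1% in the other 61 libraries. In those 61 libraries the summed TPM of 9 cardiomyocyte markers lay between 26542 and 43209, so all carried the transcripts that define the labelled tissue. In bulk tissue, fewer cells of a type and less RNA per cell cannot be told apart.

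Immediate early genes are transcribed within minutes of a stimulus such as a growth factor, a cytokine, stretch or stress, without new protein synthesis, and their transcripts are short-lived. Fos, Fosb, Fosl2, Jun and Junb encode basic leucine zipper proteins that pair into the AP-1 transcription factor, and Atf3 encodes a stress-induced relative that can pair with Jun proteins. Egr1 encodes a zinc finger factor, and Myc encodes a helix-loop-helix factor that pairs with Max and drives growth and ribosome genes. Btg2 and Zfp36 are induced in the same way but are not DNA-binding transcription factors: Btg2 is an antiproliferative cofactor that binds the CCR4-NOT deadenylase, and Zfp36 (tristetraprolin) binds AU-rich elements and hastens the decay of cytokine and early response transcripts. In the heart several of these genes are known for their rapid rise after pressure load and ischaemia.

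Promoter sequences were available for 8 of the 10 genes in a table from RefSeq (GRCm38.p6). The 250 bases upstream of the start are shown for Btg2, Junb and Fos because these genes had some of the largest changes in CAC hearts. In Btg2 the capitals mark a cAMP response element, TGACGTCA. For Zfp36 2 shorter windows are shown, with capitals on a CArG box, the site bound by serum response factor, and on a TTCNNNGAA match, the form bound by STAT factors. The Zfp36 windows lie upstream of the start in the RefSeq table but inside an exon of the longer GENCODE M21 gene model. The Btg2 stretch is chr1:134079156-134079405, that of Junb chr8:84978749-84978998 and the Zfp36 windows chr7:28379267-28379296 and chr7:28379229-28379255, all on the minus strand, and that of Fos is chr12:85473640-85473889 on the plus strand.
Btg2 promoter: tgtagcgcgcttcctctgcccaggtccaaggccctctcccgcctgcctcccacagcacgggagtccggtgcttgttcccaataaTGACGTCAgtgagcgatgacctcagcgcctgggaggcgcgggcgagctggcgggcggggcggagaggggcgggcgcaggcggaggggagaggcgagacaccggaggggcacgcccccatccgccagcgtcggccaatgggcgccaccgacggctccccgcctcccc
Junb promoter: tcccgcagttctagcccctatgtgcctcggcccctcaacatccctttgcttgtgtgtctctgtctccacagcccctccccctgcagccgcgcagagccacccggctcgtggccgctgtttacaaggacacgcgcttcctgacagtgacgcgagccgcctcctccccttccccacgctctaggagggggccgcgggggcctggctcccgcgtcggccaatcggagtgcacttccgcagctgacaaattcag
Fos promoter: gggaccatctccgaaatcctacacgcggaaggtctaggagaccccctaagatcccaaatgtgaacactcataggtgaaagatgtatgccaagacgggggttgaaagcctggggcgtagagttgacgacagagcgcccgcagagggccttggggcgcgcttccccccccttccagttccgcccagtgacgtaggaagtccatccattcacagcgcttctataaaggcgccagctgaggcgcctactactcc
Zfp36 CArG window: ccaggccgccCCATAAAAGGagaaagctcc
Zfp36 TTCNNNGAA window: acagcctgacTTCTGCGAAccgacagt

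These motifs were searched on both strands in windows from 250 bases before to 50 after the start. The CArG box occurred in 1 of 8 windows of these genes (Zfp36, at -58 to -49 from the start), against 1.63% of 32851 windows in the table. TGACGTCA occurred in 1 of 8 (Btg2, at -166 to -159), against 1.79%, and TTCNNNGAA in 1 of 8 (Zfp36, at -17 to -9), against 8.3%. The AP-1 motif TGACTCA (5.2% of all windows), the EGR motif GCGTGGGCG (0.612%), the E-box CACGTG (7.15%) and the consensus NF-kB motif (0.155%) were found in 0 of the 8. A match is a description of letters, and no match says only that these letters are not in the window.

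In CAC hearts at week 8, 8 of the 9 tested genes were higher than in Con hearts and none was lower. Junb, Btg2, Myc and Fos had the largest differences, with log2 fold changes of 2.36, 2.18, 2.11 and 1.86, followed by Atf3 (1.52), Zfp36 (1.5), Fosl2 (1.09) and Jun (0.54). Egr1 did not pass the test. Among all genes tested, 50.8% were called higher and 9.98% lower in the same comparison (limma, adjusted p below 0.05), so a call as such was common. The median log2 fold change of the 9 genes was 1.52, against 0.19 for all genes tested.

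The rise appeared after week 2. At week 2, 0 of the 9 genes passed in CAC against Con, where 1.83% of all genes were called higher and 0.00797% lower, and 1 of 9 had an unadjusted p below 0.05 (Junb). At week 4, 5 of 9 were higher (Junb, Fos, Btg2, Fosl2 and Myc), against 12.7% of all genes called higher and 2.36% lower. At week 6, 6 of 9 were higher, the same 5 and Zfp36, against 50.5% of all genes called higher and 5.25% lower. Their median log2 fold changes were 0.28, 1.03, 1.03 and 1.52 at weeks 2, 4, 6 and 8, beside 0.10, 0.09, 0.21 and 0.19 for all genes tested. Since TPM are shares, rescaling the libraries by the median of gene-wise ratios moved the median of all genes to 0.01 at week 8. The split of all genes was 6368 higher and 1251 lower as deposited and 3338 higher and 3110 lower after rescaling at week 8. At week 6 it was 6339 higher and 658 lower as deposited and 2431 and 2249 after rescaling, and at week 4 it was 1587 and 296 against 1049 and 874. Of the 9 immediate early genes 7 still passed as higher at week 8 after rescaling, and 0 passed as lower.

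The comparison with NCAC hearts, which shares the CAC libraries with the one above, gave similar counts. In CAC against NCAC, 0, 5, 6 and 8 of 9 genes were higher at weeks 2, 4, 6 and 8, against 0.582%, 13.7%, 47.7% and 57.4% of all genes. None of the 9 was lower, against 0.00797%, 2.84%, 6.85% and 8.76% of all genes. The genes called at week 4 were Junb, Fos, Btg2, Myc and Zfp36, with Fosl2 at 0.72 (limma adjusted p = 0.0833). At week 8 the log2 fold changes were 2.57 for Junb, 2.43 for Btg2, 2.15 for Fos, 2.11 for Myc, 1.89 for Atf3, 1.51 for Fosl2, 1.47 for Zfp36 and 0.75 for Jun. After median-of-ratios rescaling, all genes split into 3391 higher and 3052 lower at week 8, in place of 7197 and 1098. The split was 2605 and 2478 at week 6, in place of 5982 and 859, and 1235 and 1011 at week 4, in place of 1718 and 356. Rescaling to the same total without mitochondrially encoded and haemoglobin genes gave 5510 higher and 2060 lower of 14002 genes at week 8. The median of all genes there was 0.12, so the balance at week 8 depends on the rescaling.

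No tested immediate early gene passed between NCAC and Con hearts at any week. In NCAC against Con, 0 of 9 genes were called at each of the 4 weeks, with 0 of 9 at an unadjusted p below 0.05, and of all genes 0.0% were called at weeks 2, 4 and 6, and 0.486% were called higher and 0.223% lower at week 8. The log2 fold changes of the 9 genes lay between -0.42 (Fos at week 6, with Fosl2 at week 8 and Egr1 at week 2 at the same rounded value) and 0.48 (Zfp36 at week 2), with standard errors of 0.21 to 0.51. These errors pool the spread over all 12 groups, CAC hearts included, so the absence of a call does not show that NCAC and Con hearts were equal. At week 8 Myc differed by 0.00 (SE 0.21) and Junb by -0.21 (SE 0.29).

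**Figure D1:**
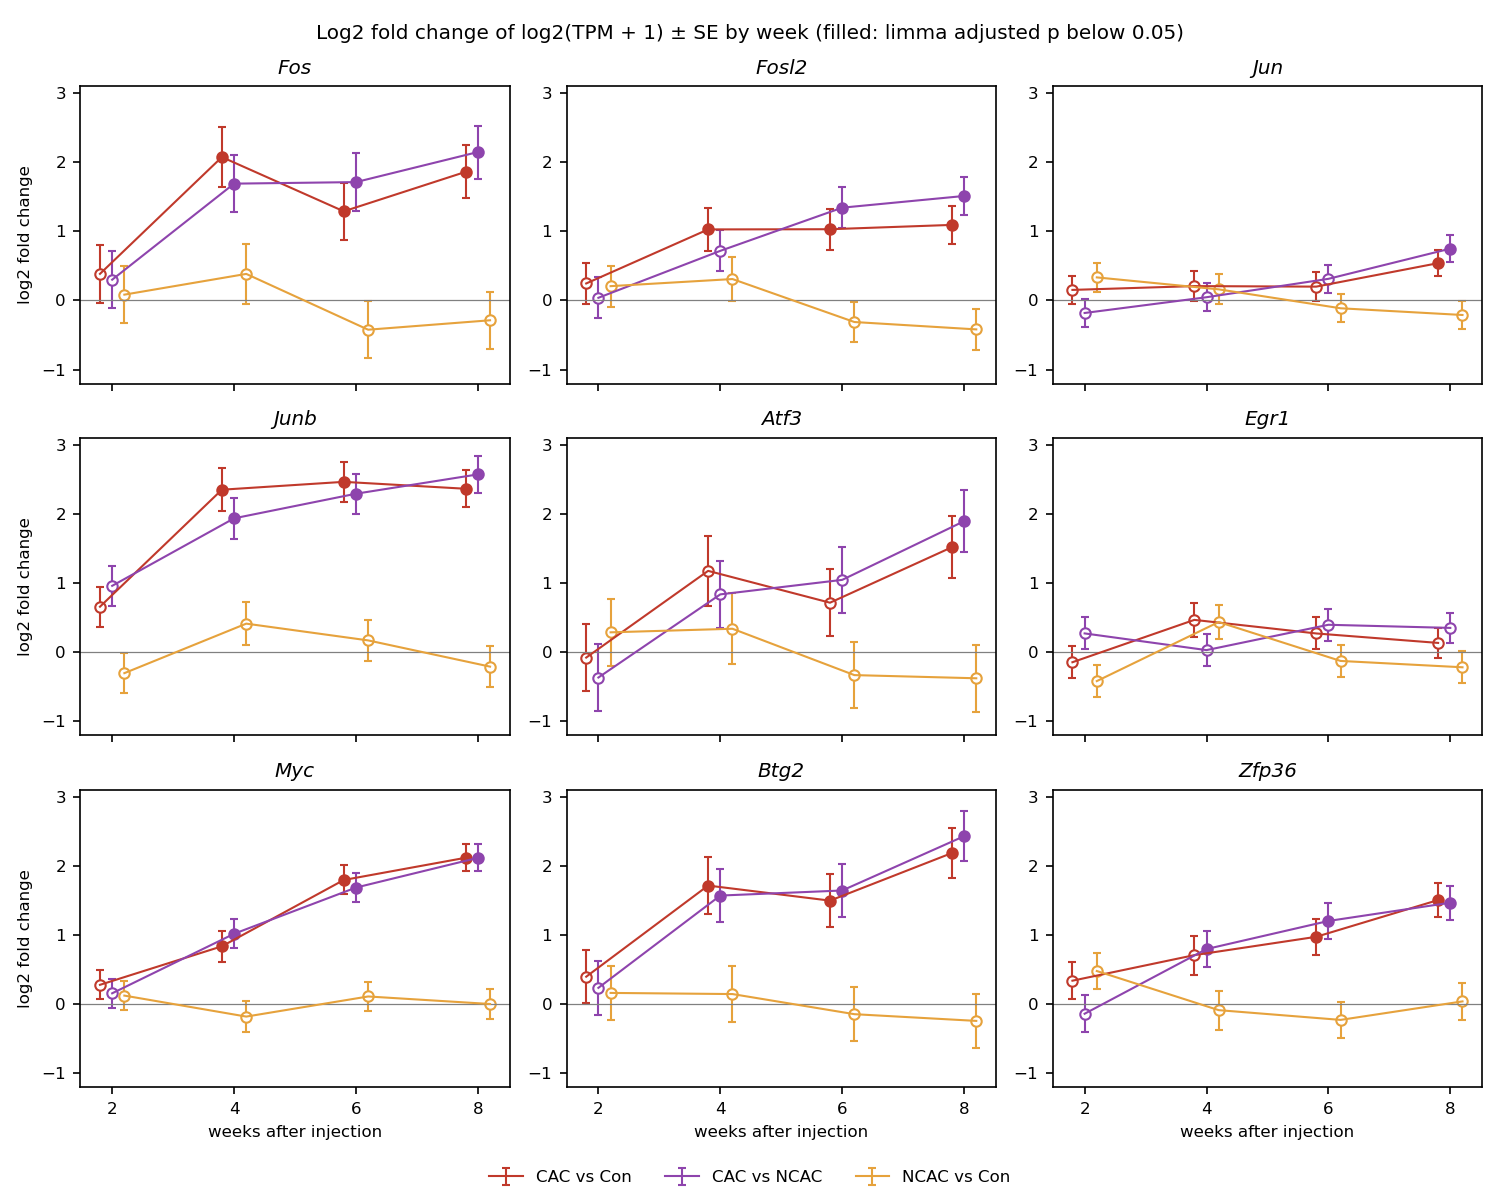
Log2 fold change of log2(TPM + 1) with its standard error (vertical axis) at 2, 4, 6 and 8 weeks after injection (horizontal axis) for the 9 tested genes, in CAC against Con (red), CAC against NCAC (purple) and NCAC against Con (yellow). Filled points have a limma adjusted p below 0.05. Junb was called from week 4 on at 1.94 to 2.57, Myc climbed with each week to 2.11, and all NCAC against Con points are open.

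Whether the difference between arms itself grew was tested as a contrast of contrasts. From week 2 to week 8 the CAC against Con difference grew for 5 of 9 genes, Myc (by 1.84), Btg2 (1.79), Junb (1.70), Fos (1.47) and Zfp36 (1.17), where 19.1% of all genes were called higher and 7.45% lower. The call of Fos was marginal (limma adjusted p = 0.0455): it was lost under 6 of 10 other settings, among them both rescalings (limma adjusted p = 0.0565 and 0.078), and without each of 15 of 22 single hearts (limma adjusted p of up to 0.0862). The other 4 calls were kept under each of these settings. The CAC against NCAC difference grew for 8 of 9, all but Egr1, against 29.8% of all genes called higher and 5.92% lower, with Atf3 at 2.26, Btg2 at 2.19 and Myc at 1.96. Between weeks 4 and 8, 1 of 9 genes passed in each comparison, Myc, which grew by 1.28 against Con (SE 0.30, limma adjusted p = 0.0068) and by 1.10 against NCAC (SE 0.29, limma adjusted p = 0.00787). The percentage of all genes called higher there was 6.63% and 15.1%, and 1.06% and 1.86% were called lower. Junb did not pass between those weeks in the comparison with Con (0.01, SE 0.41), and between weeks 6 and 8 0 of 9 genes passed in either comparison, with 0.00797% and 0.0% of all genes called higher and 0.144% and 0.167% lower. Without both CAC week 4 replicate 2 and CAC week 8 replicate 3, described below, the counts of genes whose difference grew between weeks 4 and 8 were 3 against Con and 8 against NCAC. These 2 hearts were chosen after the data were seen. For 9 of 10 of these same genes the first was the highest of its group and the second the lowest. Leaving them out enlarges the growth by itself, so these counts do not test it. Within an arm, 8 of 9 genes were higher at week 8 than at week 2 in CAC hearts (42.6% of all genes called higher and 10.1% lower). The count was 0 of 9 in NCAC hearts (0.0% of all genes) and 0 of 9 in Con hearts (0.909% higher and 0.447% lower), each with 1 of 9 at an unadjusted p below 0.05. In CAC hearts Jun passed narrowly (0.52, limma adjusted p = 0.02) and did not pass after median-of-ratios rescaling (0.36, limma adjusted p = 0.0885), in the compared groups alone, or without CAC week 2 replicate 2 or 3 or CAC week 8 replicate 2 (limma adjusted p of up to 0.0616).

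Junb, an AP-1 subunit induced by cytokines acting through STAT3 as well as by growth factors, had the largest log2 fold change of the 9 at weeks 4, 6 and 8 in both comparisons. The log2(TPM + 1) scale understates the change of genes at few TPM, and in ratios of mean TPM Junb was not first at week 8. Its ratio to Con was 6.10, below Myc (8.11) and Fos (6.40), and its ratio to NCAC was 7.05, below Fos (8.81) and Myc (8.15). Junb lies at chr8:84974484-84978718 (minus strand, mm10, GENCODE M21 gene model). At week 8 Junb had 21.3, 79.4 and 142 TPM as the lowest, median and highest of 7 CAC hearts, against 11.7, 10.8, 7.77, 10.8 and 16.3 TPM in NCAC hearts and 12.1, 18, 12, 13.2 and 11 TPM in Con hearts. Every CAC heart lay above every NCAC and Con heart, and replicate 3 was the lowest. The log2 fold change was 2.36 against Con (SE 0.27, limma adjusted p = 2.4e-10) and 2.57 against NCAC (limma adjusted p = 1.95e-11). At week 4 Junb had 21.3, 106, 35.5, 60.7 and 42.2 TPM in CAC hearts, against 11.6, 9.2, 6.12 and 7.02 TPM in Con hearts, again without overlap (2.35, SE 0.31, limma adjusted p = 3.37e-07).

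Already at week 2 Junb had 13.7, 15, 30.9, 20.5 and 16.9 TPM in CAC hearts, against 7.68, 6.8, 10.1, 12.3 and 9.43 TPM in NCAC hearts and 11.6, 10.4, 12.2, 12.2 and 10.8 TPM in Con hearts. The groups did not overlap, but the change did not pass the test (0.96 against NCAC, limma adjusted p = 0.105, and 0.66 against Con, limma adjusted p = 0.183). In mean TPM over the 12 groups the order was CAC at weeks 8, 6, 4 and 2 (80.9 ± 38.2, 54.9 ± 12.7, 53.2 ± 32.8 and 19.4 ± 6.9, SD), with the 8 NCAC and Con groups below, between 8.48 and 13.3. The ranges of neighbouring groups in that order overlapped throughout.

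Jun, the founding AP-1 partner, changed far less than Junb. Jun lies at chr4:95049034-95052222 on the minus strand. At week 8 it had 19.6, 38.5 and 49.3 TPM as the lowest, median and highest of CAC hearts, against 24.9, 16.7, 12.4, 18.1 and 31.2 TPM in NCAC hearts and 22.7, 21.1, 22.6, 24.8 and 23.4 TPM in Con hearts. Of the 7 CAC hearts 5 lay above all NCAC and Con hearts and 2 lay among them. The log2 fold change was 0.54 against Con (SE 0.19, limma adjusted p = 0.0128) and 0.75 against NCAC (limma adjusted p = 0.000597). After median-of-ratios rescaling the difference from Con was 0.33 (limma adjusted p = 0.111), and after rescaling without mitochondrially encoded and haemoglobin genes it was 0.36 (limma adjusted p = 0.106), so the call against Con depends on the scaling. At weeks 2, 4 and 6 Jun did not pass in any comparison between arms.

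The ratio of Junb to Jun, both given as TPM and so per transcript length, was chosen after these values were seen and is given with no test. Junb was above Jun in 17 of 17 CAC hearts of weeks 4 to 8, by 1.09 to 3.61 times, and in 0 of 39 NCAC and Con hearts of all weeks, where the ratio was 0.258 to 0.853. At week 2, 1 of 5 CAC hearts had more Junb than Jun. At week 8 the median ratio was 2.21 in CAC hearts, 0.594 in NCAC hearts and 0.533 in Con hearts.

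Fos, the classical AP-1 partner of Jun proteins, was low in NCAC and Con hearts. Its gene model lies at chr12:85473890-85477273 on the plus strand. At week 8 Fos had 2.4, 14.3 and 17.7 TPM as the lowest, median and highest of CAC hearts, against 2.02, 0.564, 0.466, 0.926 and 1.82 TPM in NCAC hearts and 1.56, 1.94, 0.744, 1.16 and 2.59 TPM in Con hearts. CAC hearts did not overlap NCAC hearts, and 6 of 7 lay above all Con hearts. Between CAC and Con hearts Fos differed by 1.86 (SE 0.38, limma adjusted p = 5.06e-05), and the ratio of mean TPM was 6.4, which the log2(TPM + 1) scale understates for a gene this low. At week 4 Fos had 0.829, 26.5, 3.3, 9.87 and 4.57 TPM in CAC hearts, against 0.496, 0.444, 0.513 and 0.918 TPM in Con hearts, with replicate 1 among the Con values and the other 4 above them (2.07, limma adjusted p = 0.000819).

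Fosl2, a longer-lived AP-1 subunit than Fos, was present in every heart. Fosl2 (chr5:32135801-32157842, plus strand) had 6.11, 20.6 and 32.9 TPM as the lowest, median and highest of CAC hearts at week 8, against 8.17, 4.35, 4.05, 6.05 and 9.21 TPM in NCAC hearts and 8.24, 6.61, 8.62, 8.56 and 10.7 TPM in Con hearts. Replicate 3 lay within the other arms and 6 of 7 CAC hearts lay above all of them (1.09 against Con, SE 0.27, limma adjusted p = 0.0006). At week 6 the CAC hearts, with 15.2, 25.4, 21.1, 10.5 and 14.5 TPM, were all above the Con hearts, with 8.15, 5, 8.08, 8.24 and 9.35 TPM (1.03, limma adjusted p = 0.00289). At week 4 Fosl2 also passed (1.03, limma adjusted p = 0.02), but without CAC week 4 replicate 2 it did not (0.68, limma adjusted p = 0.148).

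Fosb (chr7:19302696-19310051, minus strand) was near the floor of the table. It reached 1 TPM in 1 of 61 libraries, CAC week 4 replicate 2 with 2.08 TPM, so it did not enter the test. Its mean at week 8 was 0.404 ± 0.165 TPM in CAC hearts (SD, n = 7), 0.187 ± 0.102 TPM in NCAC hearts and 0.309 ± 0.22 TPM in Con hearts (SD, n = 5 each). In a fit without the filter it did not pass at week 8 against Con (0.11, limma adjusted p = 0.583) or NCAC (0.24, limma adjusted p = 0.144).

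Atf3 (chr1:191170296-191218039, minus strand) rose late and unevenly. At week 8 it had 1.73, 11.5 and 21.8 TPM as the lowest, median and highest of CAC hearts, against 2.73, 1.01, 1.49, 1.25 and 2.79 TPM in NCAC hearts and 2.14, 1.71, 2.92, 3.33 and 3.08 TPM in Con hearts. All CAC hearts but replicate 3 lay above both other arms (1.52 against Con, SE 0.45, limma adjusted p = 0.00303, and 1.89 against NCAC, limma adjusted p = 0.000243). At week 4 the CAC hearts had 1.22, 43.9, 2.57, 15.6 and 1.32 TPM, against 1.35, 1.92, 2.54 and 2.21 TPM in Con hearts: 2 of 5 were high, 2 lay below all Con hearts, and the difference did not pass (1.18, limma adjusted p = 0.107). At week 2 the CAC hearts, at 1.39 to 2.2 TPM, all lay below the NCAC hearts, at 2.31 to 2.59 TPM, without passing (-0.37, limma adjusted p = 0.739).

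**Figure D2:**
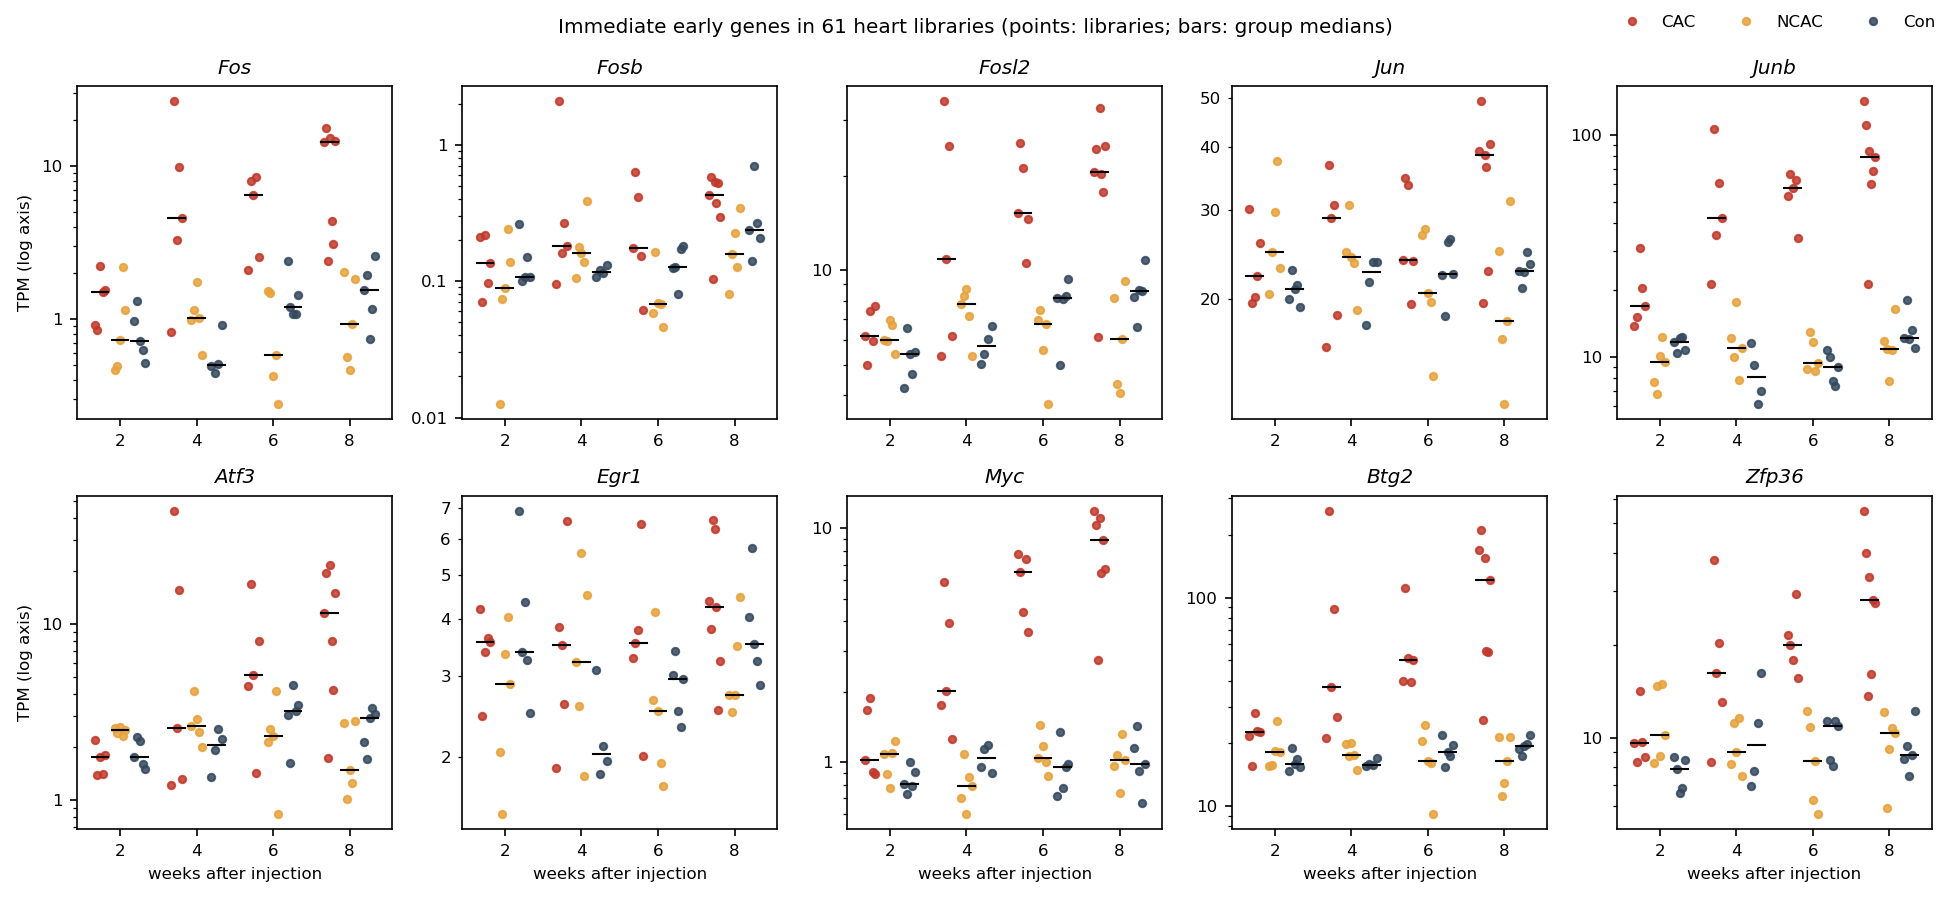
TPM on a log axis (vertical) of the 10 immediate early genes in each of 61 hearts (points) by week after injection (horizontal), with CAC in red left of NCAC in yellow and Con in dark blue, and black bars for group medians. The CAC points of Junb lie above all others at each week, those of Myc from week 4 on, and the Egr1 points of all arms overlap, up to 6.91 TPM.

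Myc (chr15:61985391-61990374, plus strand) had a higher mean at each later week in CAC hearts. Its mean in CAC hearts was 1.27 ± 0.467, 2.97 ± 1.92, 5.94 ± 1.84 and 8.31 ± 3.22 TPM at weeks 2, 4, 6 and 8 (SD, n = 5, 5, 5 and 7), while the means of the 8 NCAC and Con groups lay between 0.805 and 1.1 TPM. At week 8 Myc had 2.74, 8.94 and 11.9 TPM as the lowest, median and highest of CAC hearts, against 0.962, 1.07, 0.734, 1.32 and 1.02 TPM in NCAC hearts and 1.15, 1.42, 0.917, 0.668 and 0.976 TPM in Con hearts. No CAC heart overlapped the other arms at weeks 4, 6 or 8. The log2 fold change at week 8 was 2.11 against Con (SE 0.19, limma adjusted p = 5.17e-13) and 2.11 against NCAC (limma adjusted p = 4.11e-13). The ratio of mean TPM was 8.11 to Con. At week 4 it was 0.83 against Con (SE 0.22, limma adjusted p = 0.00788), but 0.60 without CAC week 4 replicate 2 (limma adjusted p = 0.0713). In the order of the groups, CAC at weeks 8, 6, 4 and 2 led, and each of these overlapped its neighbour in range.

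Egr1 (chr18:34859823-34864984, plus strand), often used as a reporter of immediate early induction, did not pass in any comparison between arms in the main fit. A few other settings called it higher in CAC hearts. With array quality weights it passed against Con at week 4 and NCAC at week 6 (limma adjusted p = 0.0474 and 0.041). Against NCAC it also passed at week 6 without CAC week 6 replicate 5 (limma adjusted p = 0.0448) and at week 8 with the replicate block (limma adjusted p = 0.0437). At week 8 it had 2.53, 4.25 and 6.61 TPM as the lowest, median and highest of CAC hearts, against 2.73, 2.5, 2.73, 3.5 and 4.48 TPM in NCAC hearts and 4.06, 5.73, 3.54, 3.25 and 2.88 TPM in Con hearts. The 3 arms overlapped at every week. The difference from Con at week 8 was 0.14 (SE 0.21, limma adjusted p = 0.598), and -0.03 after median-of-ratios rescaling. Against NCAC it was 0.35 (SE 0.21, limma adjusted p = 0.141).

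Btg2 (chr1:134075170-134079120, minus strand) was the most abundant of the 10 genes in CAC hearts at week 8. There it had 26, 121 and 212 TPM as the lowest, median and highest, against 21.4, 11.2, 13, 16.5 and 21.4 TPM in NCAC hearts and 18.8, 17.3, 19.4, 19.8 and 21.9 TPM in Con hearts. All CAC hearts lay above both other arms (2.18 against Con, SE 0.36, limma adjusted p = 1.03e-06, and 2.43 against NCAC, limma adjusted p = 1.02e-07). At week 4 the CAC hearts had 21.2, 260, 37.2, 88.3 and 26.8 TPM, against 15.6, 15.9, 15.7 and 17.1 TPM in Con hearts. They did not overlap, and the spread among CAC hearts was itself large (1.71 against Con, limma adjusted p = 0.0031). That p rests on the spread pooled over all 12 groups. In a fit on the compared groups alone, Btg2 at week 4 did not pass against Con (limma adjusted p = 0.0974) or NCAC (limma adjusted p = 0.0839). Without replicate 2 of CAC week 4 the difference from NCAC was 1.01 in place of 1.57 and did not pass (limma adjusted p = 0.0528).

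Zfp36 (chr7:28376784-28380253, minus strand) rose at weeks 6 and 8. At week 8 it had 13.7, 28.1 and 54.8 TPM as the lowest, median and highest of CAC hearts, against 12.1, 5.91, 9.21, 10.8 and 10.4 TPM in NCAC hearts and 8.53, 9.36, 7.51, 8.76 and 12.2 TPM in Con hearts, without overlap (1.5 against Con, SE 0.24, limma adjusted p = 8.61e-07). At week 6 the CAC hearts had 21.7, 20.1, 17.9, 29.3 and 15.6 TPM, against 11.4, 8.46, 8.08, 11.3 and 10.9 TPM in Con hearts (0.97, limma adjusted p = 0.00178). At week 4 it passed against NCAC (0.80, limma adjusted p = 0.0305) but not against Con (0.71, limma adjusted p = 0.0773). The call against NCAC was lost under 5 of 10 other settings, among them no filter (limma adjusted p = 0.0561) and the compared groups alone (0.107 as limma adjusted p). It was also lost without each of 5 of 10 single hearts, CAC replicate 2 (0.52, limma adjusted p = 0.211) or 4, or NCAC replicate 1, 3 or 5.

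Counting only genes in which every CAC heart lay above every heart of the other arm, 1, 3, 5 and 4 of 9 genes did so against Con at weeks 2, 4, 6 and 8. The same held for 7.63%, 15.1%, 36.0% and 9.78% of all genes tested. Against NCAC, 1, 3, 6 and 5 of 9 did so, beside 4.71%, 11.7%, 30.3% and 14.8% of all genes. Junb did so at all 4 weeks in both comparisons, and Myc and Btg2 from week 4 on.

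**Figure D3:**
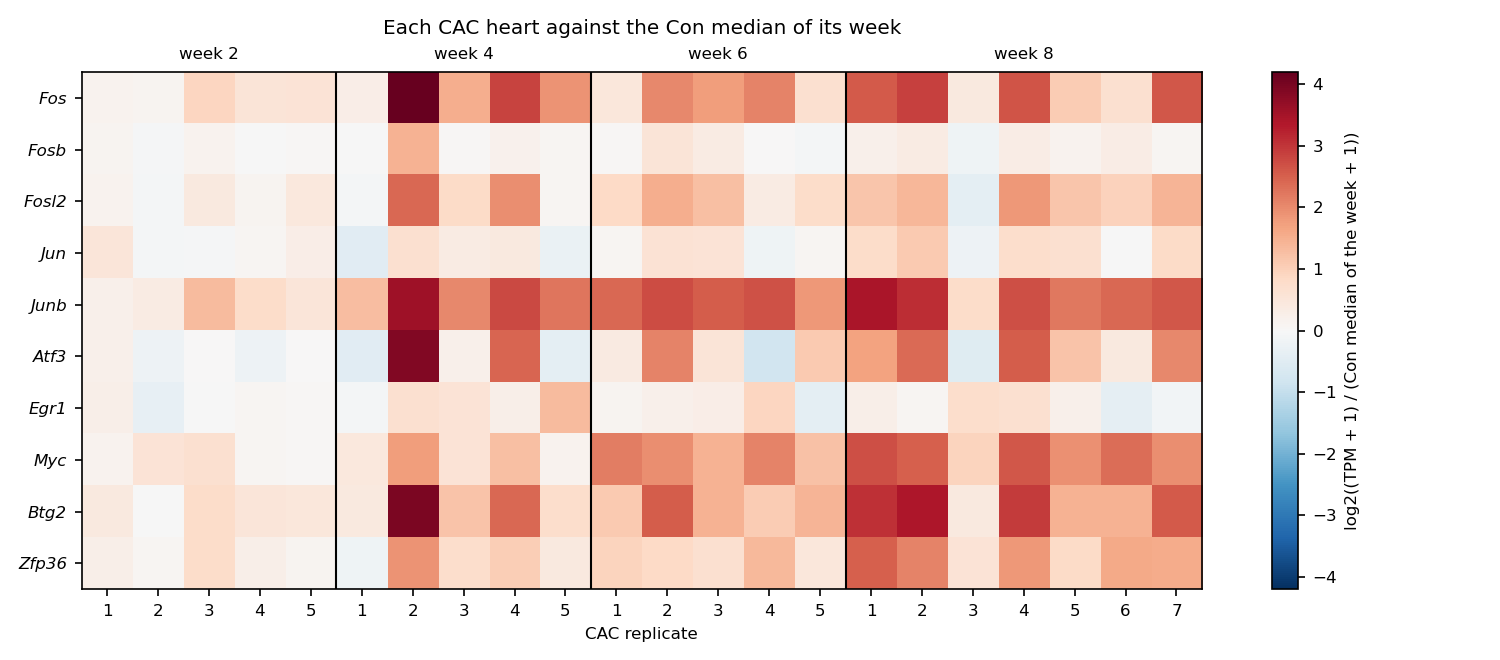
Each CAC heart (columns, by week and replicate) against the median of the Con hearts of its week, as log2 of the ratio of TPM + 1, for the 10 genes (rows), with red above and blue below the Con median. Week 4 replicate 2 is the darkest column of its week, week 8 replicate 3 the palest of its week, and the Egr1 row follows neither.

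Hearts of the same group differed in most of these genes at once. CAC week 4 replicate 2 was the highest of 5 hearts for 9 of 10 genes, and replicate 1 of that group the lowest for 9 of 10. At week 8, CAC replicate 3 was the lowest of 7 hearts for 9 of 10 genes and the highest for Egr1 (6.61 TPM). Outside CAC, NCAC week 6 replicate 5 was the lowest of its group for 9 of 10. Summed macrophage and monocyte markers (11 genes) stood at 281 TPM in CAC week 8 replicate 3, against 530 to 680 TPM in the other 6 hearts of the group, and summed fibroblast markers (8 genes) at 720 TPM against 1119 to 1418 TPM. In CAC week 4 replicate 2 the macrophage sum was 340 TPM, against 235 to 326 TPM in its group, and the fibroblast sum 962 TPM, against 690 to 811 TPM. CAC week 8 replicate 3 also stood outside the rest of its group in cardiomyocyte markers (35353 TPM against 26542 to 32507), endothelial markers (236 TPM against 245 to 306) and heat shock genes (2194 TPM against 2525 to 3021). CAC week 4 replicate 2 did so in endothelial markers (185 TPM against 223 to 286) and heat shock genes (2577 TPM against 2213 to 2519), and neither heart did in neutrophil markers. The part of these cell types and of stress in the gene levels was not tested. Leaving out CAC week 8 replicate 3 kept 8 of 9 genes called at week 8 in both comparisons, with Junb at 2.65 and Atf3 at 1.84 against Con. Leaving out CAC week 4 replicate 2 left 3 of 9 called at week 4 in both comparisons, in place of 5.

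To describe this covariation, the group mean was removed from each log2(TPM + 1) value and the 45 pairs of genes were correlated over the 61 hearts. Of 45 pairs, 26 passed with both Pearson's r and Spearman's rho (permutation within groups, 100000 resamples, Benjamini-Hochberg over the 45 pairs), and all 26 were positive. Fosl2 with Atf3 was the closest pair, with r = 0.898 and rho = 0.79 (permutation p = 1e-05 for each, the smallest these resamples can give; adjusted 3.75e-05 and 4.5e-05), and r = 0.854 without the 2 hearts farthest from the median of Fosl2. Btg2 with Atf3 had r = 0.894 (0.829 without 2 hearts), Fosl2 with Btg2 0.876 (0.807) and Fos with Btg2 0.874 (0.82). Fos, Fosl2 and Btg2 each passed with 7 of 9 partners, Jun, Zfp36 and Atf3 with 6, Fosb and Junb with 5, Myc with 3 and Egr1 with 0. The pairs of Fosb rest on values near the floor, since it reached 1 TPM in 1 of 61 hearts, CAC week 4 replicate 2. Without that heart its r with Btg2 was 0.49 in place of 0.691, and with Atf3 0.426 in place of 0.656. Without CAC week 4 replicate 2 the number of pairs that passed was 22. The points share library scaling, since TPM are shares, and after rescaling 27 pairs passed.

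Within arms the pattern differed in extent, which is given as a description with no test of the difference. The median r over the 45 pairs was 0.718 in 22 CAC hearts, 0.44 in 20 NCAC hearts and 0.00974 in 19 Con hearts. Fosl2 with Atf3 had r = 0.929 in CAC, 0.779 in NCAC and 0.779 in Con hearts, whereas Junb with Myc had 0.843, 0.0884 and 0.2. Junb with Jun had a negative r in Con hearts, at -0.718. Egr1 had a median r of -0.0314 with the other 9 genes in CAC hearts and 0.438 in NCAC hearts, where its r with Junb was 0.843.

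**Figure D4:**
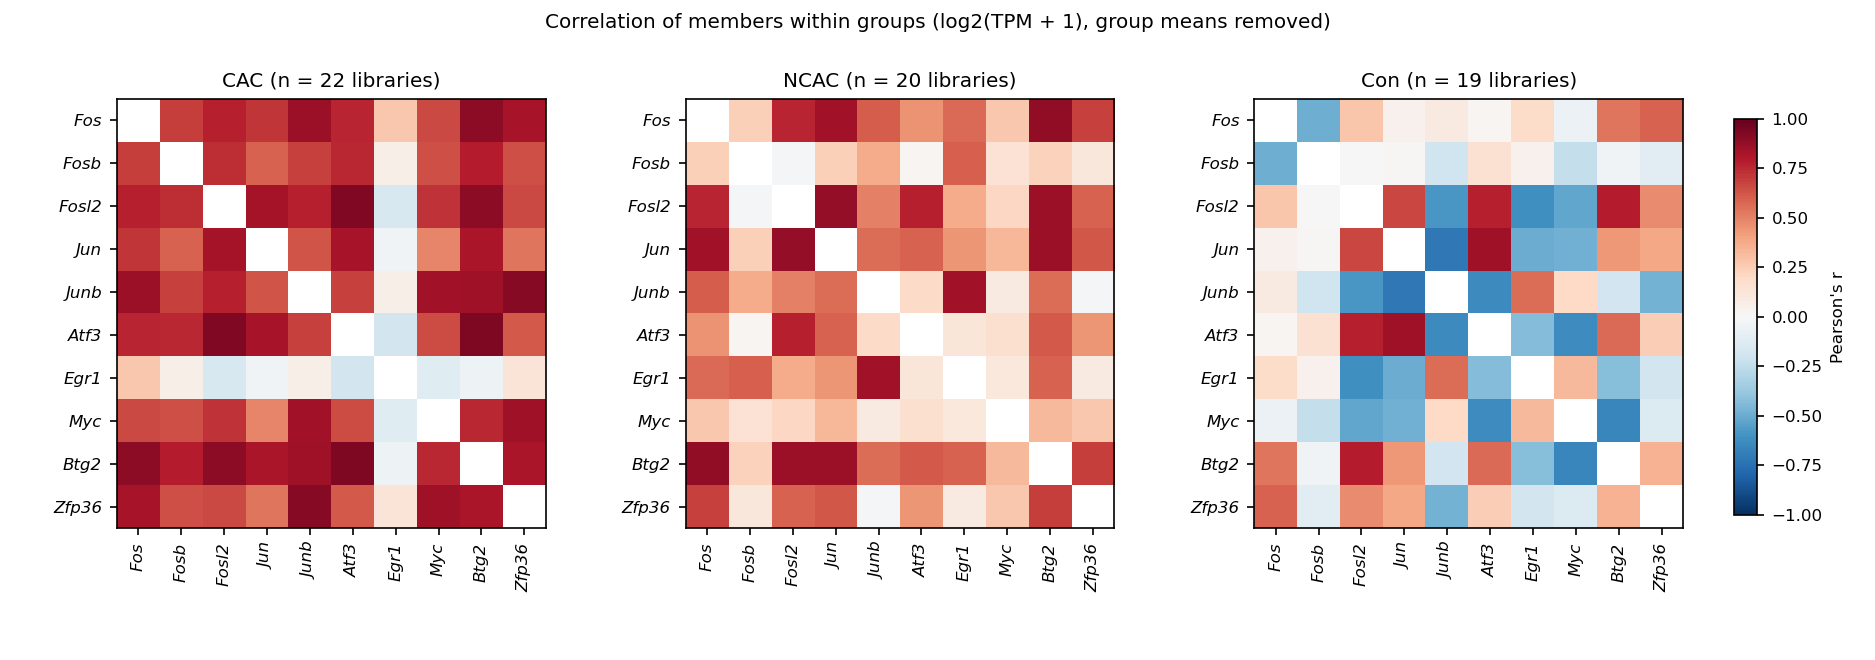
Pearson's r between each pair of the 10 genes after removal of group means, in CAC (22 hearts), NCAC (20) and Con (19), with red for positive and blue for negative. In CAC hearts all rows but that of Egr1 are red, while Con hearts show both colours, with Junb and Jun at -0.718.

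The gene most like each member over the 61 hearts was found by Pearson's r of log2(TPM + 1), as a description that includes the differences between groups. For Junb it was Sbno2 (r = 0.97), which had 35.6 ± 11.6 TPM in CAC hearts at week 8 (SD, n = 7), against 5.58 ± 0.358 TPM in NCAC hearts and 6.57 ± 0.81 TPM in Con hearts (SD, n = 5 each). For Myc it was Clca3a1 (r = 0.98), with 31.5 ± 18.1 TPM in CAC hearts, against 0.312 ± 0.133 TPM in NCAC hearts and 0.277 ± 0.1 TPM in Con hearts. Arid5a was the most like both Btg2 (r = 0.94) and Fosl2 (r = 0.93), Jade2 the most like Zfp36 (0.93), and AI839979 the most like Fos (0.89). For Atf3 it was Nr4a1 (0.89), another immediate early gene, an orphan nuclear receptor. Nr4a1 had 50.4 ± 40.6 TPM in CAC hearts, against 10.4 ± 7.61 TPM in NCAC hearts and 17 ± 9.68 TPM in Con hearts at week 8, and did not pass against Con (1.22, limma adjusted p = 0.0827). Slc25a25 was the most like Jun (0.85), and Relb the most like Egr1 (0.72).

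A wider set of immediate early genes was read in the same way. Of 34 such genes measured, 30 were tested, and against Con 0, 7, 14 and 18 were higher and 0, 0, 1 and 2 lower at weeks 2, 4, 6 and 8, where 1.83%, 12.7%, 50.5% and 50.8% of all genes were called higher. The counts higher at weeks 6 and 8 are therefore near the background as deposited, and the median at week 8 was 0.67 beside 0.19 for all genes. After median-of-ratios rescaling 13 were higher and 3 lower at week 8, with a median of 0.46 beside 0.01. Of all 12475 genes tested after that rescaling, 3338 were higher and 3110 lower. The 4 with the smallest p were Socs3, a feedback inhibitor of cytokine signalling (3.92), Cebpd, an acute-phase transcription factor (3.22), Gadd45g, a stress-inducible growth arrest gene (1.72), and Maff, a small Maf factor (1.30). Socs3 had 63 ± 31.5 TPM in CAC hearts, against 2.11 ± 0.612 TPM in NCAC hearts and 2.57 ± 0.55 TPM in Con hearts. Cebpd had 48.9 ± 15.7 TPM in CAC hearts, against 9.13 ± 2.78 TPM in NCAC hearts and 4.09 ± 0.974 TPM in Con hearts. The 2 that fell, named after their values were seen, were the kinase Plk2 (-0.44, limma adjusted p = 0.0148) and the activity-regulated gene Arc (-0.51, limma adjusted p = 0.00409).

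Among 13 tested leucine zipper genes that can pair with AP-1 subunits or their relatives, 10 were higher and 1 lower in CAC against Con at week 8, where 50.8% of all genes were higher and 9.98% lower, and 8 and 1 after rescaling, where 3338 and 3110 of 12475 genes were. Among those with the smallest p were Maf (0.95), known as a macrophage factor, Batf (0.89), an AP-1 relative of immune cells, and Nfe2l2 (0.49), the regulator of oxidative stress genes. Among 24 upstream kinases and factors 6 were higher and 1 lower, and 4 were higher and 13 lower after rescaling (median 0.03 as deposited and -0.16 rescaled). Rescaling shifted the median of all genes tested to 0.01, in place of 0.19 as deposited, so no direction is given for that list. Stat3, the factor activated by interleukin-6 family cytokines, was 69.7 ± 15.3 TPM in CAC hearts, against 27.6 ± 4.02 TPM in NCAC hearts and 31.8 ± 2.72 TPM in Con hearts (1.07, limma adjusted p = 4.03e-09). The ribosomal S6 kinases Rps6ka3 (0.59) and Rps6ka1 (0.50) and the serum response factor coactivator Mkl2 (0.47) followed, and all 4, Stat3 included, also passed after rescaling.

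Of 8 tested partners and antagonists of Myc, 5 were higher and 1 lower at week 8 in CAC against Con, near the 50.8% of all genes called higher. After rescaling 4 were higher and 2 lower, beside 3338 higher and 3110 lower of 12475 genes. Mycn, the paralog best known from development, moved against Myc and had 0.327 ± 0.459 TPM in CAC hearts, against 2.24 ± 1.28 TPM in NCAC hearts and 3.29 ± 0.831 TPM in Con hearts (-1.72, SE 0.25, limma adjusted p = 1.17e-07). Mlx (0.60), Mxd1 (0.46) and Mxd4 (0.52), members of the Max-like network, were higher. Of the corepressors and paralogs of Egr1 2 of 5 were tested, Nab1 and Nab2, the Egr corepressors, and both were higher (0.37 each), Nab2 no longer after rescaling (0.19, limma adjusted p = 0.0779). Of 15 relatives of Zfp36 and Btg2 and CCR4-NOT subunits, 7 were higher and 0 lower at week 8, and 3 and 4 after rescaling. These shares are near those of all genes in the same comparison, 50.8% higher as deposited and 3338 higher and 3110 lower of 12475 after rescaling. There Zfp36l2 (0.89), a paralog of Zfp36, and Btg1 (0.47), a paralog of Btg2, passed under both scalings, as did the CCR4-NOT subunit Cnot10 (0.31), while the subunit Cnot2 (0.21) did not after rescaling (0.01, limma adjusted p = 0.878).

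Lists that mark stress or time of day were read in the same comparison. Beside 50.8% of all genes called higher and 9.98% lower, of 12 heat shock genes 4 were higher and 2 lower at week 8 in CAC against Con, and 0 and 4 after rescaling. Of these the chaperones Hspd1 (-0.36) and Hsph1 (-0.63) were lower under both scalings, and Hspa8 (0.44) and Hspb1 (0.32) were higher as deposited and did not pass after rescaling. Of 16 clock genes 3 were higher and 2 lower: Per1 (1.14), Per2 (1.17) and Cry2 (0.28), repressors of the clock, were higher, and Nr1d1 (-1.33) and Bhlhe41 (-0.47) were lower. After rescaling 1 was higher and 2 were lower, and Per2 and Cry2 did not pass (limma adjusted p = 0.0515 and 0.58). Their part in the levels of the immediate early genes was not tested. In NCAC against Con, 0 genes of any of these 8 lists were called at any week.

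Markers of other cell types moved in the same hearts. Beside the counts below, 50.8% of all genes were called higher and 9.98% lower in CAC against Con at week 8. After median-of-ratios rescaling 3338 were higher and 3110 lower of 12475. The 11 macrophage and monocyte markers summed to 281 to 680 TPM in CAC hearts at week 8, against 85.7 to 175 TPM in NCAC hearts and 135 to 190 TPM in Con hearts, and 10 of 11 were higher in CAC against Con under both scalings. At week 4 the sums were 235 to 340 TPM in CAC hearts, against 109 to 177 TPM in NCAC hearts and 126 to 179 TPM in Con hearts. Neutrophil markers (9 genes) summed to 17.5 to 45.9 TPM in CAC hearts at week 8, against 12.3 to 33.9 TPM in NCAC hearts and 6.72 to 21.5 TPM in Con hearts, with 5 of 5 tested markers higher as deposited and 4 of 4 after rescaling. Fibroblast markers summed to 720 to 1418 TPM, against 424 to 663 TPM in NCAC hearts and 532 to 665 TPM in Con hearts, with 2 of 8 higher and 1 lower. Cardiomyocyte markers (9 genes) summed to 26542 to 35353 TPM in CAC hearts, against 34113 to 42069 TPM in NCAC hearts and 34777 to 43209 TPM in Con hearts, with 1 higher and 4 lower (7 lower after rescaling). B and T cell markers (8 genes) summed to 4.02 to 9.88 TPM, against 7.59 to 10.8 TPM in NCAC hearts and 6.66 to 14.5 TPM in Con hearts, with 3 of 3 tested lower. Adipocyte markers (6 genes) had 3 of 3 tested higher, endothelial markers (8 genes) 0 higher and 2 lower, smooth muscle and pericyte markers (7 genes) 1 higher and 2 lower, red blood cell genes (5 genes) 0 called and skeletal muscle genes 1 higher and 1 lower of 3 tested. Melanoma markers (6 genes) summed to 16.2 to 21.8 TPM in CAC hearts at week 8, 14.6 to 22 TPM in NCAC hearts and 15.1 to 18.4 TPM in Con hearts, a sum made up mostly of Mitf, which the heart also expresses. Of the 3 tested 1 was higher and 1 lower, and 1 and 2 after rescaling. Mlana, a melanocyte antigen gene named here after its values were seen, was the one that rose, with 0.974, 5.17 and 8.78 TPM as the lowest, median and highest of CAC hearts, against 0.0699 to 0.391 TPM in NCAC hearts and 0.0702 to 0.282 TPM in Con hearts. In CAC against Con, Mlana did not pass at week 2 (0.34, limma adjusted p = 0.345) and differed by 0.79, 1.43 and 2.14 at weeks 4, 6 and 8 (limma adjusted p = 0.0137, 2.87e-07 and 6.77e-13). Dct, another melanocyte gene, was lower (-1.04), and Tyr and Tyrp1 were at or near 0 in CAC hearts.

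The share of mitochondrially encoded transcripts also moved with the arm. It was 49.3 to 53.2% of TPM in CAC hearts at week 6, against 54.1 to 60.2% in NCAC hearts and 57.5 to 60.9% in Con hearts. At week 8 it was 50.1 to 55.7% in CAC hearts, against 56 to 58.7% in NCAC hearts and 52.9 to 61.1% in Con hearts. With those genes and haemoglobin genes taken out before rescaling, 7 of 9 immediate early genes still passed against Con at week 8, all but Jun and Egr1. Of 14002 genes tested under that rescaling, 3884 were higher and 2947 lower in the same comparison. The part of the cell types named above, melanoma cells included, in the rise of Junb, Myc, Btg2, Fos and the other genes was not tested.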

How the data were processed

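RNA from mouse hearts was sequenced in 62 libraries of 12 groups. Per the labels' protocols, a stranded mRNA kit was used. The authors deposited TPM values for 47643 gene symbols. Of these symbols, 24270 held 0 throughout. Per the submitters' processing notes, the build is mm10, and the aligner, counting tool, its strand setting and the annotation are not given in the sources used here. TPM keep no depth, so no counting intervals are given.

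The 10 genes and all lists were chosen with earlier results of these data known. Con week 4 replicate 2 was left out. Values were taken as log2(TPM + 1), a gene was tested (12541 in all) if 5 or more of 61 libraries reached 1 TPM, and the means of the 12 groups were fitted by limma-trend (limma 3.58.1; R 4.3.3). Tables were read by data.table, version 1.17.8, and jsonlite 2.0.0. P-values were adjusted by Benjamini-Hochberg over all genes within each comparison, with a threshold of 0.05. The fit was tested on simulated data. Correlations and figures used Python 3.11.15, numpy 2.4.6, pandas 2.3.3, scipy 1.17.1 and matplotlib 3.10.9. Gene positions come from GENCODE M21 (mm10), a version the authors do not state.

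All 10 genes are named. Of each list, every called gene of CAC against Con at week 8 is named where 5 or fewer were called, otherwise the 4 with the smallest p, and for each of the 10 genes the most correlated other gene. Plk2 and Arc were added after their values were seen, and 1 gene that the rule names is not reported here. The alternatives tried for values and genes were 0.1 as the pseudocount, all 23360 genes without a filter and a filter at 5 TPM (8788 genes). Libraries were also rescaled by median ratios (10432 genes). In a separate rescaling, mitochondrially encoded and haemoglobin genes were taken out and each library was set to the same total, without median ratios. The other alternatives were use of all 62 libraries, limma's array weights, the replicate number as a block, fits restricted to the groups of 1 comparison, and omission of single libraries. Leaving out CAC week 4 replicate 2 with CAC week 8 replicate 3, leaving out CAC week 4 replicate 2 from the correlations, and rescaling of the lists were added after the data were seen.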

Additional observations from a re-analysis of the deposited data

Results flagged for a closer look

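Of 120 groups of 4 to 7 hearts examined for a single distant value, 10 held one, where chance gives about 1 in 20. In CAC hearts these were Btg2 in week 4 replicate 2 (260 TPM) and week 6 replicate 2 (111 TPM), Fosb in week 4 replicate 2 (2.08 TPM) and Zfp36 in week 2 replicate 3 (14.2 TPM), all high. In NCAC hearts they were Btg2 in week 2 replicate 4 (25.6 TPM), Fosb in week 4 replicate 5 (0.388 TPM) and Fosb in week 6 replicate 2 (0.164 TPM). In Con hearts they were Fos in week 4 replicate 5 (0.918 TPM) and week 6 replicate 1 (2.39 TPM), and Fosb in week 8 replicate 3 (0.694 TPM). Fosb is so low that these distances are small in TPM.

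Differences between arms that changed between weeks, by limma's test of the change itself, were as follows. From week 2 to week 8 the CAC against Con difference grew by 1.84 for Myc, 1.79 for Btg2, 1.70 for Junb, 1.47 for Fos and 1.17 for Zfp36. That of Fos did not pass under 6 of 10 other settings or without each of 15 of 22 single hearts. Over the same weeks the CAC against NCAC difference grew by 2.26 for Atf3, 2.19 for Btg2, 1.96 for Myc, 1.85 for Fos, 1.61 for Junb, 1.60 for Zfp36, 1.47 for Fosl2 and 0.93 for Jun. From week 4 to week 8 Myc grew by 1.28 against Con and by 1.10 against NCAC.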

How the results depend on the processing

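Over all alternatives run, no called direction was reversed. The 8 genes called at week 8 against NCAC stayed called under each alternative, and of those called against Con Jun alone was lost, under both rescalings. The counts at weeks 6 and 8 stayed within 1.5 times of those given. At week 6 against NCAC, Atf3 and Egr1 (0.47, limma adjusted p = 0.041) were called with array quality weights. At week 2, with array quality weights, 1 gene (Junb) was called against Con and 1 (Junb) against NCAC, in place of 0. At week 4, a fit on the compared groups alone, with the spread of those groups only, called 1 gene against Con and 2 against NCAC in place of 5 each. Tested there and no longer called were Btg2, Fosl2 and Myc against Con, and Btg2, Fos and Zfp36 against NCAC. Fos was not tested in that fit against Con, since fewer than 5 of its libraries reached 1 TPM. Leaving out single libraries gave 3 to 7 against Con and 3 to 6 against NCAC, the lowest without CAC week 4 replicate 2. Against Con at week 4, Zfp36 and Egr1 were also called with array quality weights, and Zfp36 and Atf3 with all 62 libraries. For the change from week 4 to week 8 against Con, in place of 1 the count was 2 with array quality weights and 0 in the compared groups alone. It was 3 without both CAC week 4 replicate 2 and CAC week 8 replicate 3, an omission that enlarges the growth by itself. Without single libraries it was 1 to 2. Against NCAC the counts in the same order were 7, 0, 8 and 1 to 6. The counts above 1 came without CAC week 4 replicate 2 or CAC week 8 replicate 3 in both comparisons, and against NCAC also without CAC week 8 replicate 6, NCAC week 8 replicate 1 or NCAC week 8 replicate 5. Without single libraries the count for the change from week 2 to week 8 was 4 to 7 against Con. The cause was not tested. With all 62 libraries, the counts of all genes called higher at weeks 2, 4, 6 and 8 were 0, 7225, 3008 and 3834 against Con, in place of 230, 1587, 6339 and 6368, and 2, 506, 2889 and 4789 against NCAC, in place of 73, 1718, 5982 and 7197. Replicate numbers were not taken to pair the hearts, since in no comparison did every same-numbered pair have r over 0.1. The most pairs over 0.1 were 3 of 5, in CAC and NCAC at weeks 2 and 4 (highest r 0.41), and at week 8 they were 0 of 5 in CAC and Con and 1 of 5 in CAC and NCAC. With the replicate block 9 genes were called against NCAC at week 8, Egr1 included (0.53, limma adjusted p = 0.0437), and 8 against Con. TPM keep no depth, so the precision of the low genes Fosb, Fos and Myc cannot be given from counts.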
